A study of Mus musculus with 36 samples.

Results

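The comparison described here is the response of Lrig1 genetically labelled (GL) cells to a second injury of healed mouse tail skin. It sets the 3 libraries taken 1 week after the second wound (1w pw2) against the 3 libraries taken 8 weeks after the first wound, just before the second (8w pw1). These 6 libraries were chosen by their labels alone, out of 36 in the series. The other libraries are Lrig1 GL cells before wounding (0w) and at 1, 2 and 4 weeks after the first wound (1w pw1, 2w pw1, 4w pw1), and Lgr5 GL cells at the same 6 time points, with 3 libraries for each.

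All mice carried Lrig1-EGFP-ires-CreERT2 (or the Lgr5 counterpart) and the Rosa26-fl/STOP/fl-tdTomato reporter, and all, the 0w group included, received hydroxytamoxifen once on the tail before any wound. The 8w pw1 mice had 1 full-thickness wound. The 1w pw2 mice had that wound and a second one overlapping it. The tdTomato-positive cells came from an area with the wound bed and hair follicles at a distance from it, so a library can hold cells of both. The label marks descendants of cells in which the Lrig1 promoter was active at the time of tamoxifen, and the study noted some labelled fibroblasts in the skin. Because RNA was taken from a pool of sorted cells, fewer cells of a type and less RNA per cell cannot be told apart.

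Lrig1 marks stem cells of the junctional zone, the part of the hair follicle that opens towards the sebaceous gland and the infundibulum. After an injury, keratinocytes at the wound edge switch from their resting keratins to keratin 6, 16 and 17, loosen and re-form their junctions, move over the wound bed and then build a new cornified layer. The genes of the epidermal differentiation complex, among them the small proline-rich (Sprr) proteins, are cross-linked into that layer.

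Each of the 6 libraries held between 1528091 and 3365666 counts and between 16762 and 17352 genes with at least 1 count. The 10 keratinocyte markers summed to 30439 to 41335 CPM (counts scaled to a common library size, per 1e+06) at 8w pw1 and to 37718 to 40527 CPM at 1w pw2. Fibroblast markers were far lower, at 56.3 to 92.1 CPM against 8.98 to 47.4 CPM, and 1 of 10, Lum, is not in the table. Melanocyte markers summed to 20.9 to 39.3 CPM at 8w pw1 and to 4.49 to 11.3 CPM at 1w pw2. Of the 13 immune markers, 9 are not in the table and Cd74 had no count in these libraries. The rest summed to at most 17.1 CPM. Endothelial, Merkel cell and muscle markers stayed at or below 19.3 CPM in sum.

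In the 8w pw1 libraries the mitochondrially encoded genes took 14.4%, 10.9% and 12.9% of all counts. At 1w pw2 they took 8.66%, 7.54% and 4.89%. The groups did not overlap, and their means of 12.8% and 7.03% differed with p = 0.1 in a two-sided exact permutation test, the smallest p that 3 against 3 libraries allow. The other Lrig1 GL time points ranged from 3.15% to 8.99%, so the 8w pw1 libraries stood above every other library of this population. Over the nuclear genes alone, the expression-weighted GC content of the transcripts averaged 47.0% at 8w pw1 and 47.5% at 1w pw2, against 49.0% to 49.7% at the other time points. The part of these library differences in the gene-level results below was not tested, other than by refitting with the GC trend removed and without the mitochondrial genes.

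**Figure D1:**
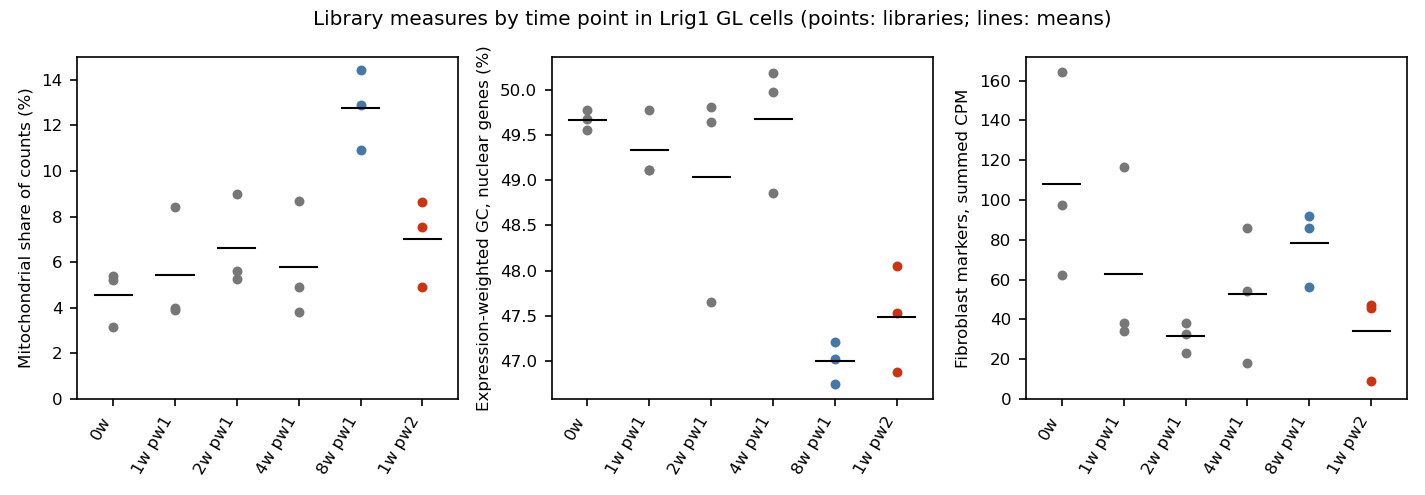
Mitochondrial share of counts in percent, expression-weighted GC content of nuclear genes in percent, and summed CPM of the fibroblast markers, by time point in Lrig1 GL cells. Points are libraries and lines are means of 3. The 8w pw1 libraries lie highest in mitochondrial share, at 10.9% to 14.4%, and average 47.0% in GC content, the lowest mean of the 6 time points.

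The second wound was followed by a rise of a single gene that passed the test. Of 14306 genes tested with edgeR's quasi-likelihood test over the 18 Lrig1 GL libraries, 1 was called (0.00699%). A call required an adjusted p under 0.05 and, in either direction, a log2 fold change beyond 1. This gene was Krt6b, and it was higher at 1w pw2. No gene was called lower. At an unadjusted p under 0.05, 440 genes (3.08%) had higher and 378 (2.64%) had lower values at 1w pw2. DESeq2 on the same libraries called 32 genes higher and 19 lower, the likelihood ratio test of edgeR 20 and 5, and limma-voom 7 and 8. Every other gene described below missed the threshold of the quasi-likelihood test.

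Krt6b encodes a keratin of activated, migrating and hyperproliferative keratinocytes. It lies on chromosome 15 from 101676023 to 101680287 of GRCm38. Its level was 10.9, 9.16 and 28.9 CPM in the 8w pw1 libraries and 483, 935 and 377 CPM in the 1w pw2 libraries. Every 1w pw2 library was more than 10 times above every 8w pw1 library. The log2 fold change was 5.19 with a standard error (SE) of 0.73 and an adjusted p of 0.0216. The call was lost without 8w pw1 library a (adjusted p = 0.418), b (0.413) or c (0.0525) and without 1w pw2 replicate 2 (0.0925), while the log2 fold change stayed between 4.71 and 5.88 over those refits and all other settings. It was also lost with limma-voom (adjusted p = 0.0839) and with 2 surrogate variables (0.0982).

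Krt6a, the neighbouring keratin 6 gene, stood at 178, 250 and 697 CPM at 8w pw1 and at 1570, 2293 and 1121 CPM at 1w pw2. The groups did not overlap. Its log2 fold change of 2.15 (SE 0.47) missed the threshold, with an adjusted p of 0.354. The coding sequences of the pair are 97.8% identical over 1659 aligned bases, so part of the reads of each could be counted for the other or left uncounted. Of the 50-base words in the Krt6b transcript, 49.9% occur in the transcript of no other gene, and of those of Krt6a 50.5%. The stretch of 75 coding bases in which they differ most is shown because reads from such stretches tell the genes apart. It covers positions 802 to 876 of each coding sequence in the GENCODE transcripts and holds 12 differences, which are in capitals.
Krt6a: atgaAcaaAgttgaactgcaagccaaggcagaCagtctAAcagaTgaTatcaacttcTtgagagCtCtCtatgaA
Krt6b: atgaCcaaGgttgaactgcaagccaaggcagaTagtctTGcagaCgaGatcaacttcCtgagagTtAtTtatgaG

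Krt16, which pairs with keratin 6 in the filaments of the wound edge, had 37.9, 42.1 and 89.0 CPM at 8w pw1. In the 1w pw2 libraries it had 453, 773 and 390 CPM, again without overlap, and its log2 fold change of 3.26 (SE 0.72) missed the threshold with an adjusted p of 0.354. Krt17, which the hair follicle also makes at rest, averaged 994 ± 206 CPM (SD, n = 3) before and 1574 ± 177 CPM after the second wound, a log2 fold change of 0.66 (SE 0.48). The 4 wound keratins thus had a median log2 fold change of 2.70 against -0.01 over all genes tested. In 4 of 4 the 1w pw2 libraries lay above the 8w pw1 libraries, as they did in 9.02% of all genes. The basal keratins gave other values. Their median was 0.05, Krt14 and Krt5 overlapped between the groups with log2 fold changes of 0.45 (SE 0.25) and 0.39 (SE 0.24), and Krt15, a keratin of the follicle bulge, had 1702, 2350 and 1527 CPM before and 1021, 358 and 1182 CPM after, with an adjusted p of 0.910.

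The remaining genes with the smallest p among those with higher values stood in several functional groups. Each was chosen, as were Krt6b, Krt6a and Krt16, for groups that do not overlap, at least 10 counts a library on average and the smallest p. All of the remaining genes missed the threshold. Fabp5, a fatty acid carrier of the epidermis, had 346, 139 and 669 CPM at 8w pw1 and 2261, 5663 and 2174 CPM at 1w pw2. Its log2 fold change was 3.13 (SE 0.66, adjusted p = 0.354). Gja1 (connexin 43, the main gap junction protein of basal keratinocytes) had 468, 335 and 608 CPM, then 1240, 1974 and 1463 CPM. Its log2 fold change was 1.73 (SE 0.38, adjusted p = 0.354). As the choice required, both genes were above their 8w pw1 range in all 3 libraries after the second wound.

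Genes of the cytoskeleton and of membrane traffic were in the same group. Fscn1, which bundles actin in cell protrusions, went from 1.09, 1.83 and 1.07 CPM to 15.1, 48.3 and 49.98 CPM (log2 fold change 4.78, SE 0.94). Rab31, a small GTPase of vesicle transport, had 22.2, 9.77 and 22.0 CPM and then 116, 130 and 96.0 CPM (2.65, SE 0.62). Cdhr1, a cadherin-related protein best known from photoreceptors, had 0.364, 0 and 0.536 CPM at 8w pw1 and 7.55, 60.6 and 32.9 CPM at 1w pw2. It had 2 counts in all at 8w pw1 and 228 at 1w pw2, of which 162 came from replicate 2. The ratio was 113, with a 95% counting interval of 30.9 to 938. Intervals of this kind cover counting error only, and they take amplified copies of the same molecule as separate counts. The adjusted p was 0.354 for Fscn1 and 0.362 for Rab31 and Cdhr1.

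Ttc9, a tetratricopeptide repeat gene, had no count at 8w pw1 and 21.2, 35.9 and 24.3 CPM at 1w pw2. Set against a floor of 3 counts over the 8w pw1 group, it was at least 58.7-fold higher. Ifitm3, an interferon-induced membrane protein, had 145, 133 and 125 CPM before and 444, 327 and 432 CPM after. Bdh1, an enzyme of ketone body metabolism, had 4.01, 10.99 and 20.4 CPM and then 61.3, 56.5 and 49.98 CPM. Mapk6, an atypical MAP kinase, had 131, 143 and 215 CPM and then 251, 563 and 518 CPM. The log2 fold changes of Ifitm3, Bdh1 and Mapk6 were 1.57, 2.26 and 1.44, and their adjusted p was 0.354, 0.354 and 0.362. Ly6a (Sca-1), a surface antigen that the study used to sort cells in other experiments, had 269, 195 and 280 CPM and then 607, 772 and 508 CPM (1.34, SE 0.32, adjusted p = 0.365).

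**Figure D2:**
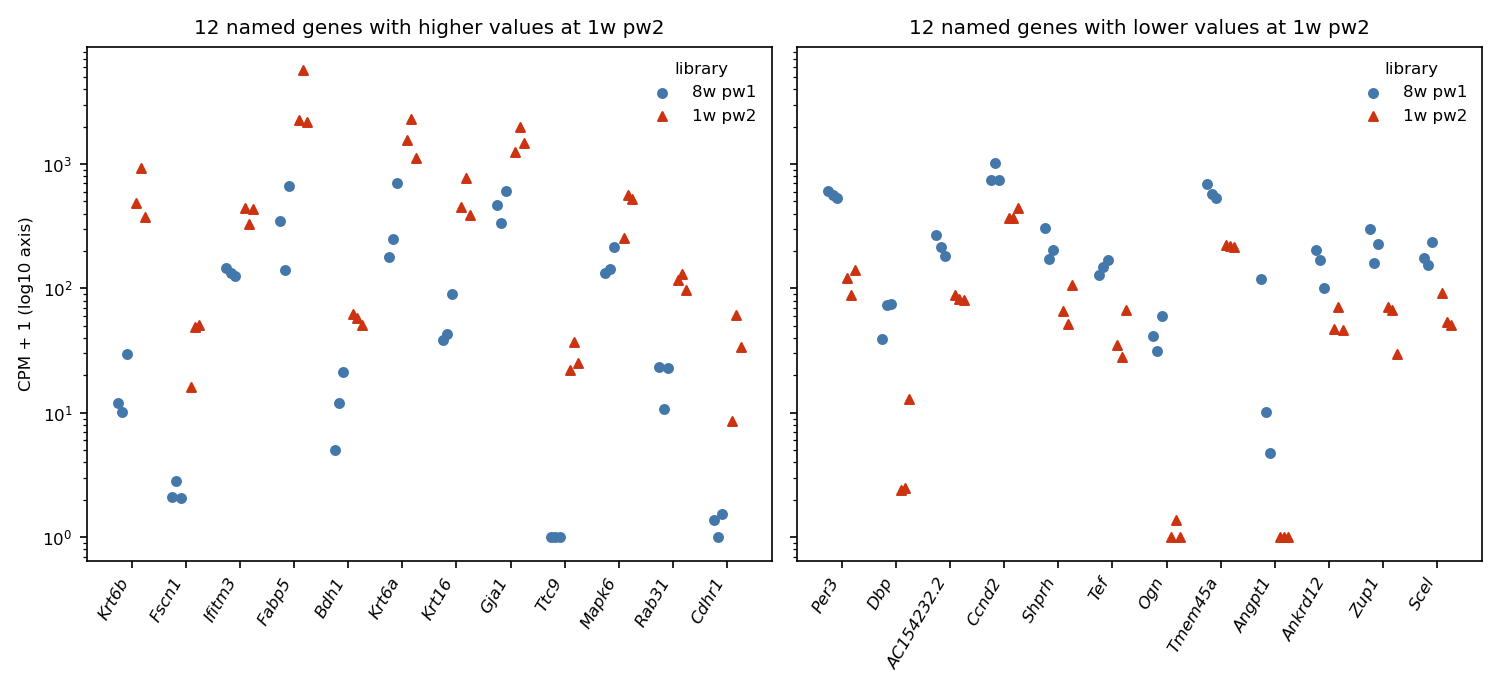
CPM + 1 on a log10 axis in each 8w pw1 (circles) and 1w pw2 (triangles) library for the 12 genes with higher and the 12 with lower values that the selection rule gave. Since the rule required it, no gene shows overlapping groups. Krt6b lies at 9.16 to 28.9 CPM and 377 to 935 CPM.

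The cornified envelope genes of the Sprr family had the highest list median, a log2 fold change of 3.71. Of 11 members, 9 are in the table and 8 were tested. Of these, 8 had estimates above 0, 7 had an unadjusted p under 0.05 (3.08% of all genes in this direction) and 0 were called. Sprr2h had 0, 0 and 1.61 CPM at 8w pw1 and 57.1, 46.0 and 29.6 CPM at 1w pw2. With 3 counts against 289, this was a ratio of 95.4 with a 95% counting interval of 32.3 to 465. Sprr1b had 17.5, 33.0 and 25.2 CPM and then 572, 314 and 190 CPM, a log2 fold change of 3.84 (SE 1.13, adjusted p = 0.661). Sprr2b was near the limit of detection before, at 0.728, 0.611 and 1.07 CPM, and had 13.2, 11.2 and 6.58 CPM after. Sprr2d and Sprr2e had no count at 8w pw1, and with both at their bound the list median stayed at 3.71. With so few counts at 8w pw1, Sprr2h, Sprr2b, Sprr2d and Sprr2e passed the filter through other time points. An estimate above 0 was thus close to fixed for them, and the shared direction of the list only describes it. Sprr2a1 and Sprr2a3 cannot be told apart from each other by most of their sequence, since 3.72% and 38.9% of their 50-base words are in no other gene, while for Sprr2h and Sprr1b all are.

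The upstream sequences of the Sprr genes were searched because the estimates of all tested members lay on the same side of 0. For part of them the low counts at 8w pw1 made this likely, as given above. RefSeq promoter entries (GRCm38.p6) were found for 8 of 8 tested Sprr genes and for 0 of 4 wound keratins. In the 250 bases before the start, the AP-1 letters TGAGTCA, read on both strands, occurred in 5 of 8 Sprr promoters (62.5%) and in 3.37% of the promoters of genes tested. The Sprr2 genes arose by duplication and share sequence, so these are not independent. Among the 12 named genes with higher values, 8 had an entry and Gja1 alone held the letters. Among the 12 with lower values, 9 had an entry and Scel alone held them, 36 bases before the start. Sprr1b, whose p was smaller than that of Sprr2b, does not hold the letters. Windows around the match are shown for matching genes with small p in their lists, Sprr2h, Sprr2b and Gja1, with the AP-1 letters in capitals. They lie on the + strand at chr3:92385452-92385528, chr3:92316475-92316551 and chr10:56377246-56377299, and the match begins 198, 195 and 19 bases before the start.
Sprr2h: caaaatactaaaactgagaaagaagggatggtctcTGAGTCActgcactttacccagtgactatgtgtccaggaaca
Sprr2b: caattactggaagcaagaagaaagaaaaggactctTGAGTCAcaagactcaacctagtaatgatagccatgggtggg
Gja1: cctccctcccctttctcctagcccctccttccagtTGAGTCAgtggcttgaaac

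The genes of the AP-1 factor itself had a median log2 fold change of 0.74. Fosl1, the Fos family member of migrating keratinocytes, had 1.46, 0 and 0 CPM before and 20.8, 16.5 and 11.2 CPM after the second wound, with an adjusted p of 0.858. It was the 1 of 10 members with an unadjusted p under 0.05 (3.08% of all genes in this direction). Jun and Junb had log2 fold changes of 0.66 (SE 0.48) and 0.45 (SE 0.33). In 4 of 10 members the groups did not overlap, with higher values at 1w pw2, against 9.02% of all genes.

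Differentiation genes of the interfollicular epidermis had a median of 0.16 over 21 members (0.044 without 1w pw2 replicate 1), of which 14 had estimates above 0. Krt1, the keratin of the first suprabasal layers, had 1797, 1095 and 1737 CPM and then 3361, 3364 and 3166 CPM. Calm4 (a calmodulin-like protein of differentiating skin) had 994, 693 and 1081 CPM and then 2799, 1647 and 1697 CPM. For both the 1w pw2 libraries lay above the 8w pw1 libraries, but the adjusted p was 0.858 and 0.850. Of the 21 members, 3 had groups that did not overlap with higher values and 2 with lower ones, against 9.02% and 8.64% of all genes. Krt1 averaged 3261 CPM at 0w and 3297 CPM at 1w pw2, and Calm4 2983 and 2048 CPM. At the other end of the epidermis, the hemidesmosome and laminin-332 list had a median of 0.05. Dst, which anchors keratin to the hemidesmosome, had lower values after the second wound (757, 600 and 615 CPM, then 385, 387 and 395 CPM), with an adjusted p of 0.858.

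Among the connexins, Gjb2 (connexin 26) was the other with an unadjusted p under 0.05. With Gja1, 2 of 6 thus had higher values at this level, against 3.08% of all genes. Gjb2 had 21.1, 40.3 and 62.2 CPM at 8w pw1 and 322, 548 and 145 CPM at 1w pw2, a log2 fold change of 3.04 (SE 1.01, adjusted p = 0.782). The median over 6 connexins was 0.50, and 0.32 without 1w pw2 replicate 1. The list of cadherins and desmosomal proteins had a median of 0.08 over 15 members. Dsc2 was the 1 member under an unadjusted p of 0.05, with higher values, as 3.08% of all genes had. Dsc2 had 9.10, 8.55 and 52.5 CPM before and 31.1, 271 and 145 CPM after, which overlap. Of 29 migration genes, 1 had higher and 1 had lower values at an unadjusted p under 0.05. These counts are near the shares over all genes, 3.08% and 2.64%. The members were Cdc42, a GTPase of cell protrusion (0.73, SE 0.33), and Itgb5, an integrin subunit (-0.99, SE 0.43). The median of that list was 0.32, and 0.19 without 1w pw2 replicate 3.

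S100 proteins and interleukin-1 genes mark stressed keratinocytes. S100a8 had 297, 0 and 12.9 CPM at 8w pw1 and 888, 804 and 829 CPM at 1w pw2. Its level before the second wound thus rested on library a. S100a11 had 205, 144 and 219 CPM and then 379, 409 and 288 CPM. The S100 list median was 0.53, with 2 of 11 members higher at an unadjusted p under 0.05, against 3.08% of all genes. In the interleukin-1 and inflammasome list the median was 0.08, and -0.31 without 8w pw1 library a. Il18 had 0, 0 and 5.36 CPM before and 0, 55.0 and 37.5 CPM after. Pycard, the inflammasome adaptor, had 172, 205 and 180 CPM and then 161, 152 and 107 CPM. No member of either list was called.

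Energy metabolism genes of the nucleus and of the mitochondrion gave medians of opposite sign. In the glycolysis and hypoxia list 25 of 30 members had estimates above 0, 7 had an unadjusted p under 0.05 (3.08% of all genes did in this direction) and the median was 0.50. Ldha, which turns pyruvate into lactate, had 534, 605 and 1067 CPM and then 1326, 1694 and 1105 CPM (log2 fold change 0.90, SE 0.27, adjusted p = 0.695). Pkm, the last step of glycolysis, had 287, 293 and 508 CPM and then 852, 611 and 675 CPM (0.98, SE 0.30). Slc2a1, the glucose transporter that the study followed, had 188, 223 and 385 CPM and then 449, 663 and 477 CPM (1.00, SE 0.36, adjusted p = 0.835). For these 3 genes the groups did not overlap.

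All 13 mitochondrially encoded genes had estimates below 0, with a median of -1.14. Of these, 5 had an unadjusted p under 0.05, against 2.64% of all genes in this direction, and 0 were called. mt-Nd4, a subunit of complex I, had 6446, 3620 and 6650 CPM at 8w pw1 and 3100, 2779 and 1709 CPM at 1w pw2 (log2 fold change -1.14, SE 0.35, adjusted p = 0.751). mt-Nd2 had 2113, 1097 and 2159 CPM and then 865, 906 and 555 CPM. The median was -0.73 without 1w pw2 replicate 3 and -0.65 with the GC trend removed. In contrast, 53 of 57 nuclear genes of oxidative phosphorylation had estimates above 0, with a median of 0.41. Of these genes, 4 had higher values at an unadjusted p under 0.05, against 3.08% of all genes. Uqcr10, a small subunit of complex III, had 85.2, 50.7 and 84.7 CPM and then 190, 169 and 93.4 CPM. The ratio of the 13 mitochondrially encoded genes to this nuclear list, in summed CPM, was 15.4, 10.6 and 16.3 before and 6.18, 5.54 and 4.00 after the second wound.

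Antioxidant genes under the factor NRF2 had a median of 0.53, and 16 of 17 had estimates above 0, of which 6 at an unadjusted p under 0.05. Gsto1, a glutathione transferase, had 206, 156 and 256 CPM and then 432, 689 and 431 CPM (1.33, SE 0.34, adjusted p = 0.472). G6pdx, which supplies NADPH, had 48.1, 33.6 and 21.4 CPM and then 108, 89.8 and 71.7 CPM. The heat shock list had 3 of 10 members at an unadjusted p under 0.05, among them Hspa8 with 346, 299 and 373 CPM and then 588, 492 and 506 CPM. Its median was 0.49, and 0.31 without 1w pw2 replicate 2. Of 78 cytoplasmic ribosomal protein genes, 72 had estimates above 0, with 10 at an unadjusted p under 0.05 and a median of 0.38, which was 0.17 without 8w pw1 library b. All members of these 3 lists at an unadjusted p under 0.05 had higher values at 1w pw2, as 3.08% of all genes did. None of the members of these 3 lists was called.

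Cell cycle genes had a median of 0.69, and 27 of 31 had estimates above 0. Those with the smallest p act in mitosis. Ccnb2 (cyclin B2) had 95.03, 122 and 72.9 CPM at 8w pw1 and 277, 257 and 210 CPM at 1w pw2, a log2 fold change of 1.36 (SE 0.43, adjusted p = 0.762). Ube2c, an enzyme of the anaphase-promoting complex, had 5.83, 23.8 and 30.6 CPM and then 62.3, 92.8 and 41.4 CPM. Cdc20, the activator of that complex, had 26.2, 37.9 and 56.3 CPM and then 104, 78.2 and 71.7 CPM. In 13 of 31 genes the groups did not overlap, with higher values after the second wound, and in 0 with lower ones, against 9.02% and 8.64% of all genes. Ccnd2 (cyclin D2), which is outside this list, had the opposite direction, as given below.

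**Figure D3:**
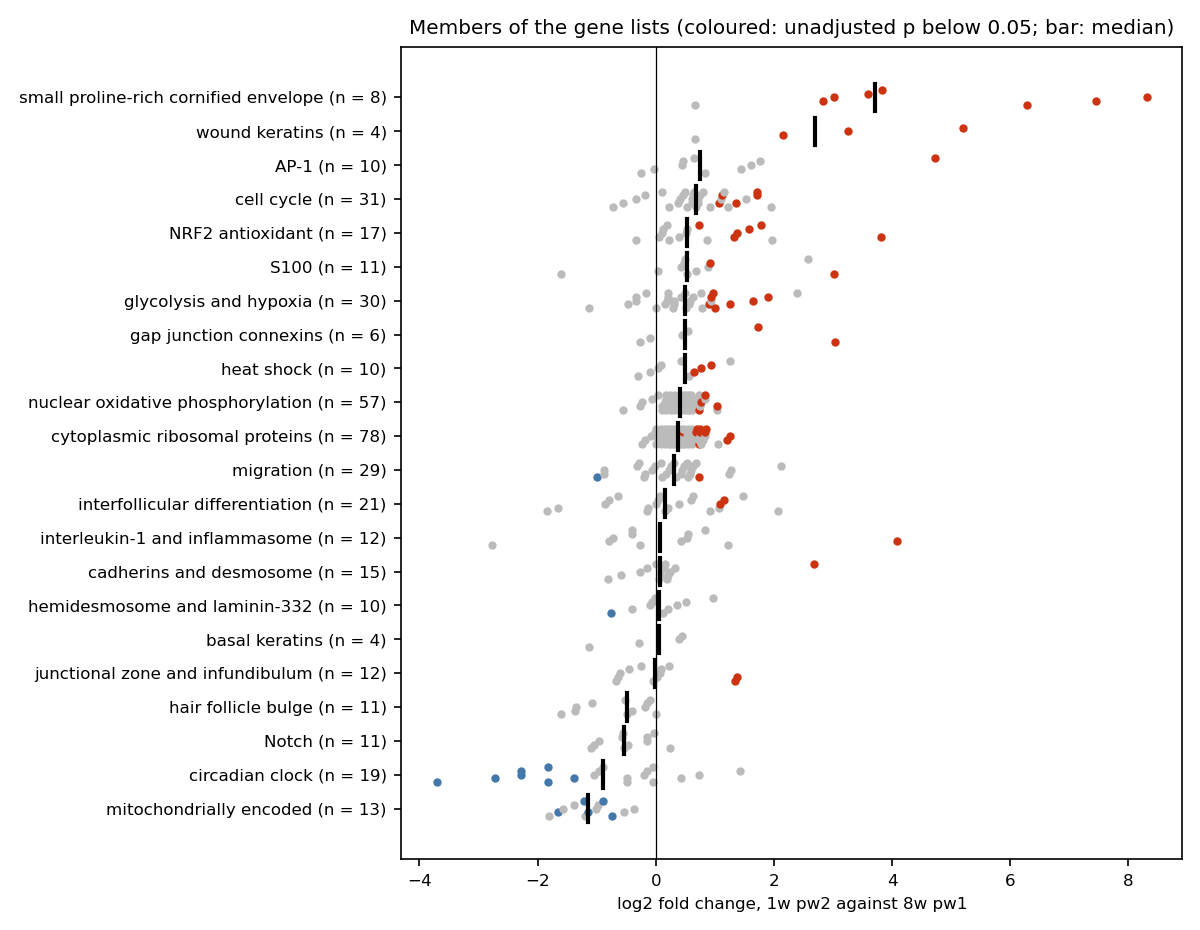
Log2 fold change of 1w pw2 against 8w pw1 for each tested member of 22 gene lists. Points are genes, coloured where the unadjusted p is under 0.05, and bars are list medians, from -1.14 for the mitochondrially encoded genes to 3.71 for the Sprr genes.

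No gene with lower values at 1w pw2 passed the test. The 12 with the smallest p included Per3, Dbp and Tef, which belong to the circadian clock and its output. Per3, a period protein that represses the clock's activators, had 603, 567 and 529 CPM at 8w pw1 and 120, 88.3 and 140 CPM at 1w pw2. Its log2 fold change was -2.29 (SE 0.47, adjusted p = 0.354). Dbp had 38.6, 72.7 and 73.4 CPM and then 1.42, 1.497 and 11.8 CPM (-3.70, SE 0.82). Tef had 127, 148 and 169 CPM and then 33.98, 26.9 and 65.8 CPM (-1.82, SE 0.45). Dbp and Tef are transcription factors of the same PAR bZIP family, which bind D-box sites.

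A list of 20 clock genes was added after these values were seen, so its counts only describe the family. Of 19 tested, 16 had estimates below 0, 0 were called, and the median was -0.90. At an unadjusted p under 0.05, 7 had lower values, against 2.64% of all genes. Per2 averaged 48.4 ± 10.9 CPM before and 7.17 ± 5.01 CPM after the second wound (SD, n = 3). Bhlhe41, a repressor of the clock, averaged 281 ± 142 CPM and then 79.6 ± 24.1 CPM. Arntl, the activator that is most abundant when Dbp is scarce, averaged 37.9 ± 24.5 CPM and 62.7 ± 22.9 CPM, with a log2 fold change of 0.73 (SE 0.92). The hour at which skin was taken is not in the labels, and its part in these values was not tested.

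RefSeq promoters were found for 16 of the 19 clock genes. The E-box letters CACGTG occurred in the 250 bases before the start of 5 of these genes (28.6% of their promoters, against 8.35% of the promoters of genes tested). The D-box letters TTANGTAA, on both strands, occurred in 1 (4.76% of promoters against 1.37%). Per3 and Tef are shown because they are the clock genes of the named set that hold a match, with the D-box of Per3 and the E-box of Tef in capitals. They lie at chr4:151044781-151044905 on the - strand and chr15:81802511-81802586 on the + strand.
Per3: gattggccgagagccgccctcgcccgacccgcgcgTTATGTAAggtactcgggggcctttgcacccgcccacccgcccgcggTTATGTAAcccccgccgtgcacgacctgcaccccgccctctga
Tef: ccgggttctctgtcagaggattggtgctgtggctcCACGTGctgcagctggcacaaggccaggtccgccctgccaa

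The other genes of the lower group have several roles. Ccnd2 had 742, 1024 and 741 CPM at 8w pw1 and 366, 368 and 439 CPM at 1w pw2 (-1.10, SE 0.26, adjusted p = 0.365). Scel (sciellin, a precursor of the cornified envelope) had 176, 152 and 237 CPM and then 91.1, 52.8 and 49.98 CPM. Tmem45a, a transmembrane protein of differentiating keratinocytes, had 691, 569 and 534 CPM and then 224, 217 and 214 CPM. Shprh and Zup1, which act on ubiquitin in the response to DNA damage, went from 306, 172 and 204 CPM to 64.7, 50.5 and 106 CPM and from 299, 159 and 225 CPM to 69.8, 66.2 and 28.9 CPM. Ankrd12, a nuclear ankyrin repeat protein, and AC154232.2 had log2 fold changes of -1.55 and -1.42. The adjusted p of these genes lay between 0.362 and 0.628.

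Ogn and Angpt1, which are known from mesenchymal cells, were almost absent after the second wound, but they were also low before 8w pw1. Ogn averaged 7.37, 5.62, 2.25 and 1.59 CPM at 0w, 1w pw1, 2w pw1 and 4w pw1, against 43.4 CPM at 8w pw1. At the same time points Angpt1 averaged 0, 2.04, 0.113 and 1.53 CPM, against 43.9 CPM at 8w pw1. Ogn (osteoglycin, a matrix proteoglycan) had 40.8, 30.5 and 59.0 CPM at 8w pw1 and a single count at 1w pw2, a ratio of 0.00364 with a 95% counting interval of 9.2e-05 to 0.0205. Angpt1 (angiopoietin 1) had 118.7, 9.16 and 3.75 CPM and then no count, which makes it at least 117-fold lower against a floor of 3 counts over the 1w pw2 group. Of its 348 counts 326 came from library a, and without that library the bound was 13.2-fold. Beside them, the fibroblast marker Dcn averaged 26.0 ± 23.4 CPM before and 1.03 ± 0.99 CPM after. The sum of the fibroblast markers was below the 8w pw1 range in every 1w pw2 library, but its members did not all go this way. In counts, Col6a1 had 211 before and 107 after, Col6a2 33 and 8, and Col3a1 18 and 1. Thy1 had 44 and 38, and Pdgfra 13 and 13. Col1a1 had 1 and 4, Col1a2 1 and 15, and Fbn1 0 and 1. The part of fibroblasts in the values of Ogn and Angpt1 was not tested.

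Of 11 bulge genes 10 had estimates below 0, with a median of -0.49, no member at an unadjusted p under 0.05 and 2 with groups that did not overlap, against 8.64% of all genes in this direction. Lgr5 overlapped, with 74.3, 104 and 176 CPM and then 21.7, 8.23 and 87.5 CPM. For Notch the median was -0.54 over 11 members, and -0.34 without 8w pw1 library c. Notch3 had 51.7, 41.5 and 52.0 CPM before and 26.4, 24.7 and 23.7 CPM after (-0.96, SE 0.47, adjusted p = 0.902), and Jag2 had 117, 117 and 167 CPM and then 99.1, 67.0 and 107 CPM. In the junctional zone and infundibulum list the median was -0.01, with 6 estimates above and 6 below 0. Of its members 2 had an unadjusted p under 0.05 and 2 had groups that did not overlap, all with higher values at 1w pw2. Over all genes these shares were 3.08% and 9.02% in this direction. Lrig1 itself did not separate the groups, with 74.3, 124 and 103 CPM and then 123, 98.8 and 95.4 CPM (0.08, SE 0.33, adjusted p = 0.996), and the sign of this estimate turned under 4 other settings. The 11 lists not named here, with 178 members tested, had 0 called and medians from -0.46 to 0.31.

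The 8w pw1 libraries were then placed among all 6 time points of Lrig1 GL cells. Among the 12 named genes with lower values, 11 had their highest mean of all 6 time points at 8w pw1, and in 7 the 1w pw2 mean was within the range of the 0w to 4w pw1 means. The choice of genes that do not overlap favours a high rank at 8w pw1. Of all 1236 such genes with lower values, 785 (63.5%) had their highest mean there and 600 had a 1w pw2 mean within the 0w to 4w pw1 range. Shprh, for instance, had 101, 63.8 and 85.8 CPM at 0w, which overlaps its 1w pw2 values and lies below its 8w pw1 values. Over all genes tested 8w pw1 had the highest mean in 23.6% and the lowest in 23.1%. Dbp, Per3, Tef and Ogn had their lowest mean at 1w pw2, and of these Dbp, Per3 and Ogn also had their highest at 8w pw1. Of the 12 named genes with higher values, 7 had their lowest mean at 8w pw1, Krt6b among them, and 6 had their highest at 1w pw2. Of all 1290 genes with higher values and groups that did not overlap, 69.3% had their lowest mean at 8w pw1 and 26.9% their highest at 1w pw2. Fabp5, Gja1, Ttc9, Mapk6, Rab31 and Cdhr1 were the 6 named genes highest at 1w pw2.

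Gene lists differed in how often 8w pw1 had the lowest mean, which was 23.1% over all genes tested. The mean was lowest at 8w pw1 in 63 of 78 ribosomal protein genes, 42 of 57 nuclear oxidative phosphorylation genes and 8 of 11 S100 genes. The same held for 9 of 17 NRF2 genes, 9 of 21 interfollicular differentiation genes and 15 of 31 cell cycle genes, while 8 of the 31 were highest at 1w pw2. It was lowest there in 9 of 30 glycolysis and hypoxia genes, 9 of 29 migration genes, 3 of 10 heat shock genes, 2 of 10 AP-1 genes, 1 of 11 Notch genes and 1 of 12 interleukin-1 and inflammasome genes. The ribosomal list summed to 9254 to 13019 CPM at 8w pw1, to 12829 to 16400 CPM at 1w pw2 and to 13359 to 24231 CPM at the other time points. All 13 mitochondrially encoded genes had their highest mean at 8w pw1. The sum of the wound keratins was 1144 to 1652 CPM at 8w pw1, below all 0w libraries at 2712 to 4970 CPM, and reached 3311 to 5531 CPM at 1w pw2. The 1w pw1 libraries had 4500 to 10811 CPM.

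**Figure D4:**
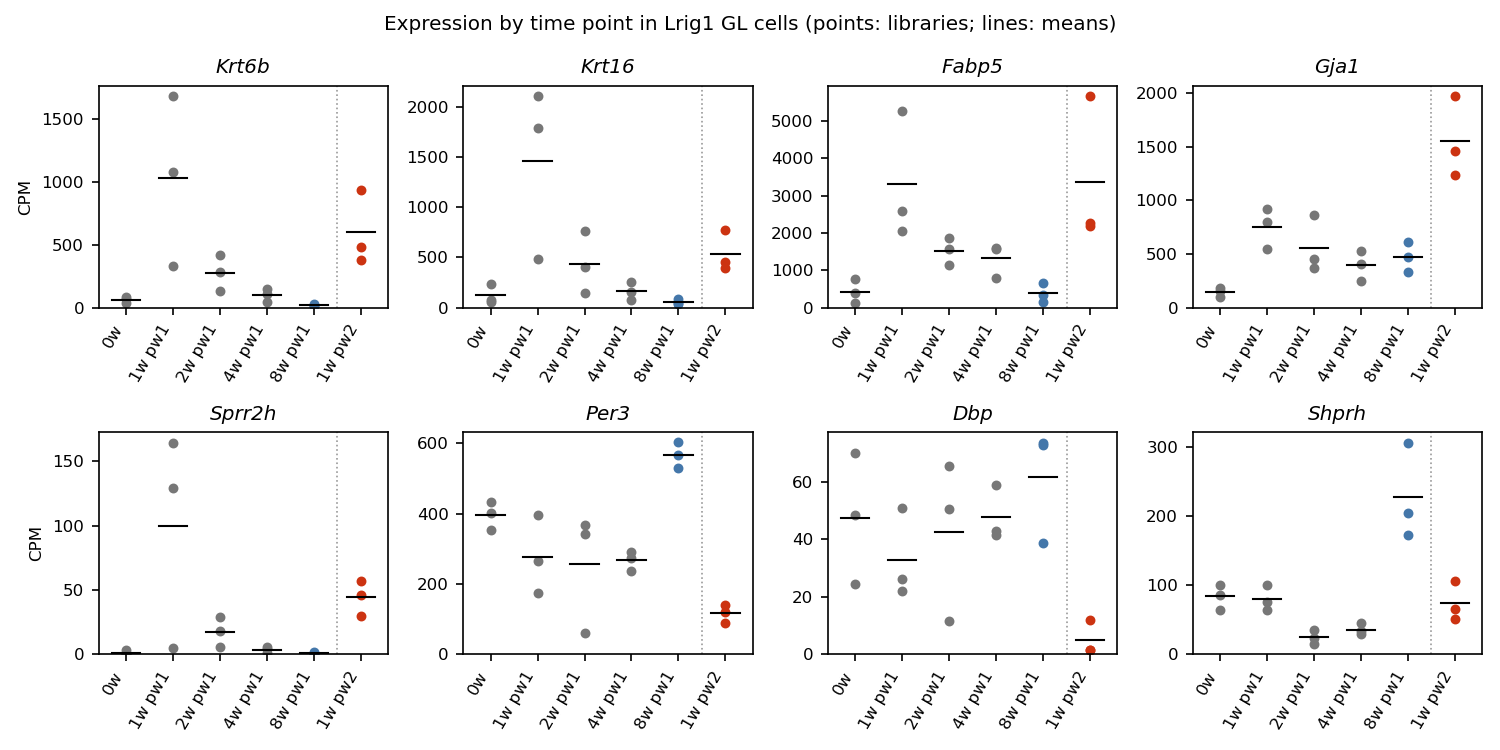
CPM by time point for 8 genes in Lrig1 GL cells. Points are libraries, lines are means of 3, and the dotted line marks the second wound. Krt6b, Krt16 and Sprr2h are highest on average at 1w pw1, Gja1 is highest at 1w pw2, Dbp is lowest at 1w pw2, and Shprh is highest at 8w pw1.

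The second response was then set beside the first, 1w pw1 against 0w, which shares no library with it. All 12 named genes with higher values after the second wound also had estimates above 0 after the first, and 11 of them had an unadjusted p under 0.05 there, as did 5.97% of all genes in this direction. Of the 7088 genes with an estimate above 0 at the second wound, 49.5% had one above 0 at the first. Krt6b, Gja1, Mapk6 and Rab31 were called in the first response, in which 0.217% of genes were. For Krt6b the first log2 fold change was 4.07 (SE 0.68, adjusted p = 0.0157), from 64.7, 82.8 and 35.2 CPM to 1675, 328 and 1072 CPM. Gja1 went from 150, 94.2 and 181 CPM to 923, 795 and 543 CPM (2.41, SE 0.39). Slc2a1 was called in the first response (2.44, SE 0.38, adjusted p = 0.0123) and missed the threshold in the second.

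Of the 12 named genes with lower values, 10 had estimates below 0 in the first response and 3 had an unadjusted p under 0.05 there, against 5.07% of all genes in this direction. Of the 7207 genes with an estimate below 0 at the second wound, 53.4% had one below 0 at the first. The median log2 fold change of the 12 named genes was -1.72 in the second and -0.47 in the first response. Ccnd2 was called lower after the first wound as well (-1.57, SE 0.27, adjusted p = 0.0167). Per3 and Dbp had -0.51 (SE 0.45) and -0.52 (SE 0.72). The mitochondrially encoded genes had a median of 0.32 in the first response, the Sprr genes one of 5.53 and the cell cycle genes one of -0.10. Across all 14306 genes the log2 fold changes of both responses had a Pearson r of 0.09, which is given as a description, since genes are not replicates.

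A test of the difference itself, the second response minus the first, called no gene (0% of 14306) with edgeR's quasi-likelihood test. At an unadjusted p under 0.05 there were 1135 genes, and the likelihood ratio test called 33, S100a8 among them and Rab31 not. The difference was 1.13 (SE 0.87) for Krt6b, 0.0071 (SE 0.63) for Krt6a and -0.33 (SE 0.94) for Krt16 on the log2 scale. For Rab31 it was -3.06 (SE 0.91), with 0, 1.62 and 3.20 CPM at 0w and a level of 9.77 to 22.2 CPM still present at 8w pw1. S100a8 had 0, 0.812 and 0 CPM at 0w against 297, 0 and 12.9 CPM at 8w pw1, and its difference was -8.25 (SE 2.25). Neither difference passed the threshold of the quasi-likelihood test, both with an adjusted p of 0.573. With the likelihood ratio test the adjusted p of S100a8 was 0.0244, for a difference of -8.32.

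**Figure D5:**
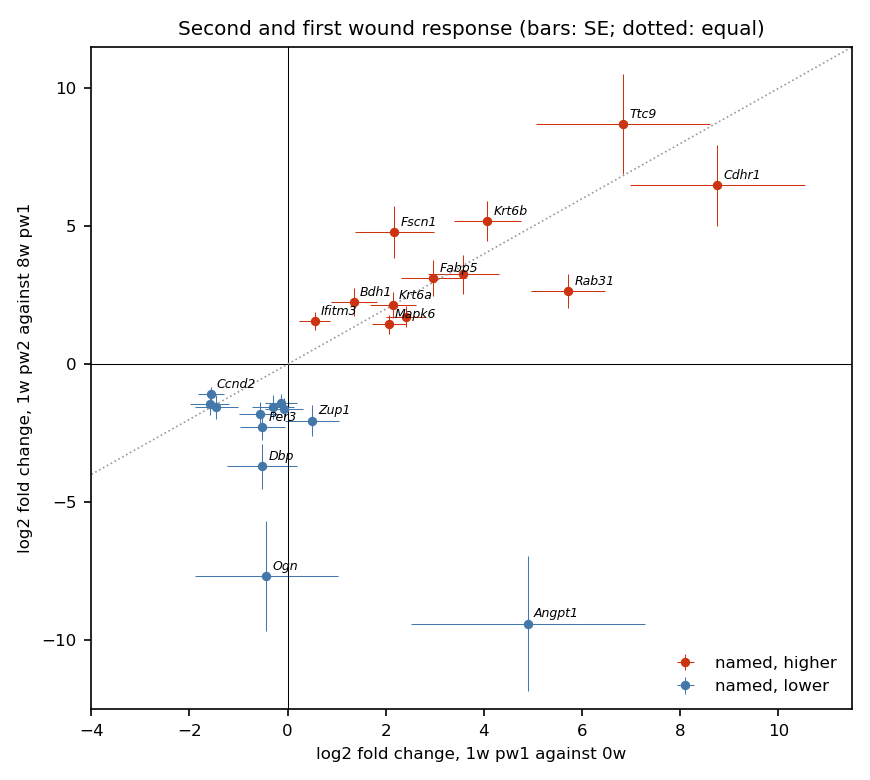
Log2 fold change of 1w pw2 against 8w pw1 plotted against that of 1w pw1 against 0w for the 24 named genes, with SE bars. Some crowded points carry no label. The 12 genes with higher values lie right of 0 on the horizontal axis, while the 12 with lower values lie on both sides of it.

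Lgr5 GL cells, the progeny of stem cells of the bulge and hair germ, were wounded in the same way. In them Krt6b ranged from 57.9 to 145 CPM at 8w pw1 and from 90.4 to 179 CPM at 1w pw2, so the groups overlapped (log2 fold change 0.52, SE 0.58). Fabp5 had 51.4 to 92.1 CPM and then 139 to 170 CPM, and Ccnd2 had 59.5 to 150 CPM and then 175 to 413 CPM, the opposite direction to that in Lrig1 GL cells. Of the 12 named genes with higher values 8 had estimates above 0 in Lgr5 GL cells, as did 50.8% of all genes with an estimate above 0 in Lrig1 GL cells. Of the 11 tested genes with lower values, 7 had estimates below 0, as did 50.6% of all genes with an estimate below 0 in Lrig1 GL cells. The test of the difference between both populations called no gene (0% of 13980) with edgeR's quasi-likelihood test, had 634 genes at an unadjusted p under 0.05, and called Krt6b, Ttc9 and Ccnd2 with the likelihood ratio test. The smallest adjusted p of the quasi-likelihood test was 0.0999 for Ccnd2, with a difference of -2.60 on the log2 scale, and that of Krt6b was 0.144, with a difference of 4.64.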

How the data were processed

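Small pools of sorted tdTomato-positive tail skin cells were profiled by Smart-seq2-like mini-bulk RNA-seq with oligo(dT) capture and without molecular identifiers. A few cells, or amplified copies of the same molecule, can therefore weigh on genes with low counts. Per the labels and the study's methods, the authors trimmed reads with Trim Galore 0.5.0, aligned them to GRCm38 (mm10) with HISAT2, assigned them to the exons of GENCODE genes with featureCounts, and deposited raw counts per gene name. Whether strand was used in counting is not given in the sources used here.

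Genes passing filterByExpr (minimum of 10 counts) in the 18 Lrig1 GL libraries were tested with edgeR 4.0.16 (R 4.3.3): TMM, quasi-likelihood test by time point, Benjamini-Hochberg adjustment, and calls at an adjusted p under 0.05 with a log2 fold change beyond 1 in either direction. CPM are counts divided by the TMM-scaled library size and multiplied by 1e+06, where 3 counts equalled 1.09 to 1.97 CPM. The SE is the log2 fold change divided by the square root of F. In the deposited counts, 21 of 36 columns, the 8w pw1 ones included, carry numbers that match no single labelled replicate, and are named a, b and c. The study's legend for this experiment gives 3 mice, the labels tie no library to a mouse, and p-values measure the spread between libraries. Named genes are, in each direction, the 12 smallest p with at least 10 counts a library and groups that do not overlap (no predicted-gene symbols), the smallest p of each described list, and genes the study names. The members and lists were chosen with earlier results of these data known. Annotation, GC content (14252 of 14306 genes tested) and transcripts came from a GENCODE release on GRCm38 one later than the one the authors used. The clock list was added after values were seen. The fit was tested on simulated data. Alternatives used DESeq2 1.42.0, limma 3.58.1 and sva 3.50.0.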

Additional observations from a re-analysis of the deposited data

How the results depend on the processing

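The count of genes called between 8w pw1 and 1w pw2, 1 with the quasi-likelihood test, became 25 with the likelihood ratio test, 51 with DESeq2, 15 with limma-voom, 7 with only the 6 libraries and 0 with 2 surrogate variables. It ranged from 0 to 1 when single libraries were left out. With DESeq2 size factors, no filter, a minimum of 30 counts, the GC trend removed, a robust fit, mitochondrial genes removed or the adjusted p alone, it stayed at 1. The fit with the column number as a replicate block also called 1 gene, Krt6b, and changed no other call. Same-numbered columns had a mean correlation of deviations of -0.01 over 33 pairs, most of them from other time points. Between 8w pw1 and 1w pw2 the correlation was 0.02 for number 2 and 0.02 for number 3. With so few pairs, this cannot tell whether the libraries were paired. The difference of the second from the first response went from 0 to 33 genes with the likelihood ratio test and ranged from 0 to 1 with single libraries left out. The difference between Lrig1 GL and Lgr5 GL cells went from 0 to 3 and ranged from 0 to 1. The difference in the mitochondrial share of counts, -5.72 percentage points, ranged from -6.64 to -4.65 with single libraries left out. The estimate of Lrig1 turned to -0.13 with 2 surrogate variables, -0.012 with the GC trend removed and -0.10 without 8w pw1 library a and -0.07 without 1w pw2 replicate 1 (range -0.10 to 0.25 with single libraries left out), and that of Dsg2 to 0.062 with 2 surrogate variables. The cause of these changes was not tested. Of 395 refitted list medians, 388 moved by less than the spread between libraries. With single libraries left out, medians near 0 changed sign for basal keratins (-0.02 to 0.18), the hemidesmosome and laminin-332 list (-0.04 to 0.17), the junctional zone and infundibulum list (-0.18 to 0.06) and the interleukin-1 and inflammasome list (-0.31 to 0.38). The common biological coefficient of variation was 0.70.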

Other observations

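The calls of the other tests held predicted genes that share sequence with the named genes. Of the 51 genes that DESeq2 called, 10 have symbols of predicted genes, and 5 of these (Gm11597, Gm13998, Gm14328, Gm6100 and Gm6166) contain 50-base words of the Krt6a, Krt6b, Krt16 or Fabp5 transcripts. The likelihood ratio test called 7 predicted genes, of which 3 (Gm11597, Gm13998 and Gm6166) do so. In the Fabp5 transcript 78.9% of the 50-base words occur in no other gene, and in that of Krt16 62.4%.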
